A study of Mus musculus with 18 samples.

Results

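Tex genes are mouse genes named for their expression in the testis, and apart from the name they are not 1 gene family. The members here are the genes of the count table whose symbol is Tex followed by a digit. One gene of that kind is not analysed here. The rule used names only and no measured value, and it found 37 members among 46603 genes in the table. All 37 are annotated as protein-coding. Of these, 8 are X-linked (Tex11, Tex13a, Tex13b, Tex13c1, Tex13c2, Tex13c3, Tex16 and Tex28) and 29 are autosomal. A filter on low counts kept 36 of them for testing, and the one not tested, Tex13c3, had 15 reads over all libraries.

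RNA was sequenced from germ cells sorted out of the testes of adult male C57BL/6 mice. Every group carried the same Stracre-GAG-tdTomato transgenes, so no group without them was measured. There were 6 groups of 3 libraries, and the labels abbreviate their names without explaining them. Undiff.Spg and Diff.Spg usually mean undifferentiated and differentiating spermatogonia. PreL, LZ and PD usually mean spermatocytes, in preleptotene, in leptotene or zygotene, and in pachytene or diplotene. RS usually means round spermatids. The labels give neither the sorting gates nor the number of animals, and they do not say that replicates came from separate animals, so p-values measure the spread between these libraries, which may be technical.

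Spermatogenesis runs from dividing spermatogonia through meiosis to haploid spermatids. Early in meiotic prophase chromosomes break, pair and exchange strands, and at pachytene the X and Y chromosomes are transcriptionally silenced in the sex body. Round spermatids then transcribe genes for the acrosome and the flagellum. Members of the Tex name set act at many of these points: TEX14 keeps the intercellular bridges between germ cells open, TEX15 works in double-strand break repair and in silencing of transposons by DNA methylation, TEX11 is an X-linked protein of meiotic crossover formation, TEX101 is a surface protein of germ cells needed for sperm to migrate in the oviduct, and TEX38 works with the palmitoyltransferase ZDHHC19 in sperm formation.

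Library totals ran from 11777947 to 16607462 counts. Levels are CPM, counts brought to a common library size after scaling the totals by the trimmed mean of M-values (TMM). As bulk RNA, these levels cannot tell fewer cells of a type apart from less RNA per cell. Of 26 genes listed as stage markers, 17 had their highest mean in their own group, such as Gfra1 in Undiff.Spg, Sycp1 in LZ, Piwil1 in PD and Acrv1 in RS. None of the 4 listed for PreL did: Stra8, Meioc and Prdm9 were highest in LZ and Rec8 in RS. A pair of libraries stood apart. The median level of 319 genes of PD and RS was 3.35% of its later level in PreL replicate 2 and 3.30% in LZ replicate 2, against 0.352% to 0.744% in the other libraries of both groups. Of the lists for other testis cell types, Sertoli genes summed to 57.6 to 103 CPM in LZ, 34.4 to 37.6 in Undiff.Spg and 3.00 to 3.12 in PD. Of the 8 Sertoli genes, 6 were called higher in LZ than in PreL and 7 lower in PD than in LZ, with Clu at 55.8 ± 16.8, Amhr2 at 11.2 ± 2.46, Cldn11 at 4.04 ± 2.11 and Sox9 at 1.08 ± 0.171 CPM in LZ (SD, n = 3). Clu, Amhr2, Cldn11 and Amh had their highest mean in LZ, and Sox9, Rhox5, Wt1 and Gata4 had theirs in Undiff.Spg. Wt1 had 17.5 ± 1.95 CPM in Undiff.Spg and 2.38 ± 0.654 in LZ, and Gata4 had 6.90 ± 0.305 and 2.10 ± 0.906. The part of Sertoli transcripts in the LZ values was not tested. Leydig genes summed to at most 7.97 CPM in any library, with Lhcgr at 0 in every group but RS. Macrophage genes summed to at most 9.33 and peritubular genes to at most 19.3, and endothelial genes to 25.8 to 33.2 in Undiff.Spg and at most 11.6 elsewhere.

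Promoter sequences of 6 members are shown because they range from poor to rich in CpG, a property set beside the stage of the peak further on. RefSeq gave promoters (250 bases before to 50 after the start, GRCm38.p6) for 30 of the 37 members, and those without one were Tex11, Tex13a, Tex13c2, Tex15, Tex22, Tex24 and Tex43. The 6 windows below hold the 250 bases before the start, 5′ to 3′ on the gene's strand, with every CG pair in capitals.
Tex19.1 (chr11:121145893-121146142, + strand, GRCm38.p6): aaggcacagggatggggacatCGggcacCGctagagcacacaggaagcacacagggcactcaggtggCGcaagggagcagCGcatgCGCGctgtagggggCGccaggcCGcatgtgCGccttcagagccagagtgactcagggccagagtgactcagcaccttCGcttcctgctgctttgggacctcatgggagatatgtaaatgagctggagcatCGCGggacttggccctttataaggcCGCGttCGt
Tex19.2 (chr11:121118678-121118927, - strand, GRCm38.p6): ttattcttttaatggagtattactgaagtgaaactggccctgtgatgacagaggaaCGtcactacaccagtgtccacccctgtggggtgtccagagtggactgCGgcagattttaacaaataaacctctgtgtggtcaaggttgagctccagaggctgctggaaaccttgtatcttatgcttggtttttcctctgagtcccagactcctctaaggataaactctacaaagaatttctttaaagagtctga
Tex101 (chr7:24672051-24672300, - strand, GRCm38.p6): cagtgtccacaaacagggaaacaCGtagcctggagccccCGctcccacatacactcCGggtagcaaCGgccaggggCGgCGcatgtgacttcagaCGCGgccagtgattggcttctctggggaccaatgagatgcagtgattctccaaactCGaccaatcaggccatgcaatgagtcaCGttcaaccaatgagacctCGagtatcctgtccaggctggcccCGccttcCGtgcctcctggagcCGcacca
Tex2 (chr11:106612931-106613180, - strand, GRCm38.p6): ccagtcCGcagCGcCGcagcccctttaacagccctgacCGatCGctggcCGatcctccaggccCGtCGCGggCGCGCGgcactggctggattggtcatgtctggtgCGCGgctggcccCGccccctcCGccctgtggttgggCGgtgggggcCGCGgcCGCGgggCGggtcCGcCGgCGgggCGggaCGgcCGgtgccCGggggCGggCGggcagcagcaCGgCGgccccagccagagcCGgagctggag
Tex33 (chr15:78395913-78396162, - strand, GRCm38.p6): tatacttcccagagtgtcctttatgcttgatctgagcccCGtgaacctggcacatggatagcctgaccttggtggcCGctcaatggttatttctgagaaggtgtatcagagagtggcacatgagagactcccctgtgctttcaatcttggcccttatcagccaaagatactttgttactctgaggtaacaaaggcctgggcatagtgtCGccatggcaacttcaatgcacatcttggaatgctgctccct
Tex38 (chr4:115781035-115781284, - strand, GRCm38.p6): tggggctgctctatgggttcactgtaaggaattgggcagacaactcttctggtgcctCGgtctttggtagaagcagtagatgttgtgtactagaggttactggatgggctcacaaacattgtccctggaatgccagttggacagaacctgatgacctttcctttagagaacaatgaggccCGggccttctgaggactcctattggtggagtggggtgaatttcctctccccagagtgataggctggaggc
The paralogs Tex19.1 and Tex19.2, neighbours on chromosome 11 with the same stage of highest level, held 15 and 2 CG pairs in these windows. Tex101, which peaked in LZ, held 14, and Tex2, which was at 62.0 CPM or more in every library and peaked in RS, held 34. Tex33 and Tex38, both enriched in RS, held 3 and 2. The windows of Tex101 and Tex2 start from the RefSeq transcript, and the GENCODE gene models reach further upstream. These 2 windows may therefore not be the promoters of the transcripts counted.

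Most members had their highest level in round spermatids. By the mean CPM of 3 libraries, 25 of 37 members (67.6%) peaked in RS, 7 in LZ, 3 in PreL, 2 in Undiff.Spg, and none in Diff.Spg or PD. Over all 18547 tested genes, 27.1% peaked in RS, 17.4% in LZ, 8.58% in PreL, 19.5% in Undiff.Spg, 10.7% in Diff.Spg and 16.7% in PD. Scaled by total library size only, 1 member peaked in PD. All 36 tested members differed among the 6 groups at an adjusted p under 0.05 by edgeR's quasi-likelihood test, a property shared by 99.0% of all genes tested.

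A difference was called where the adjusted p was under 0.05 and the groups differed 2-fold or more, and a member was called enriched where it was higher by that rule than in each of the 5 other groups. RS held 20 enriched members against 14.1% of all tested genes, and LZ held 4 against 4.53%. No member was enriched in Undiff.Spg (7.25% of all genes), Diff.Spg (1.44%), PreL (0.270%) or PD (4.26%) by edgeR, and DESeq2 also gave 0 in each of these. At an unadjusted p under 0.05 and with no fold condition, 2 members were higher in Undiff.Spg than in each other group, 1 in PreL, and 0 in Diff.Spg or PD.

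**Figure D1:**
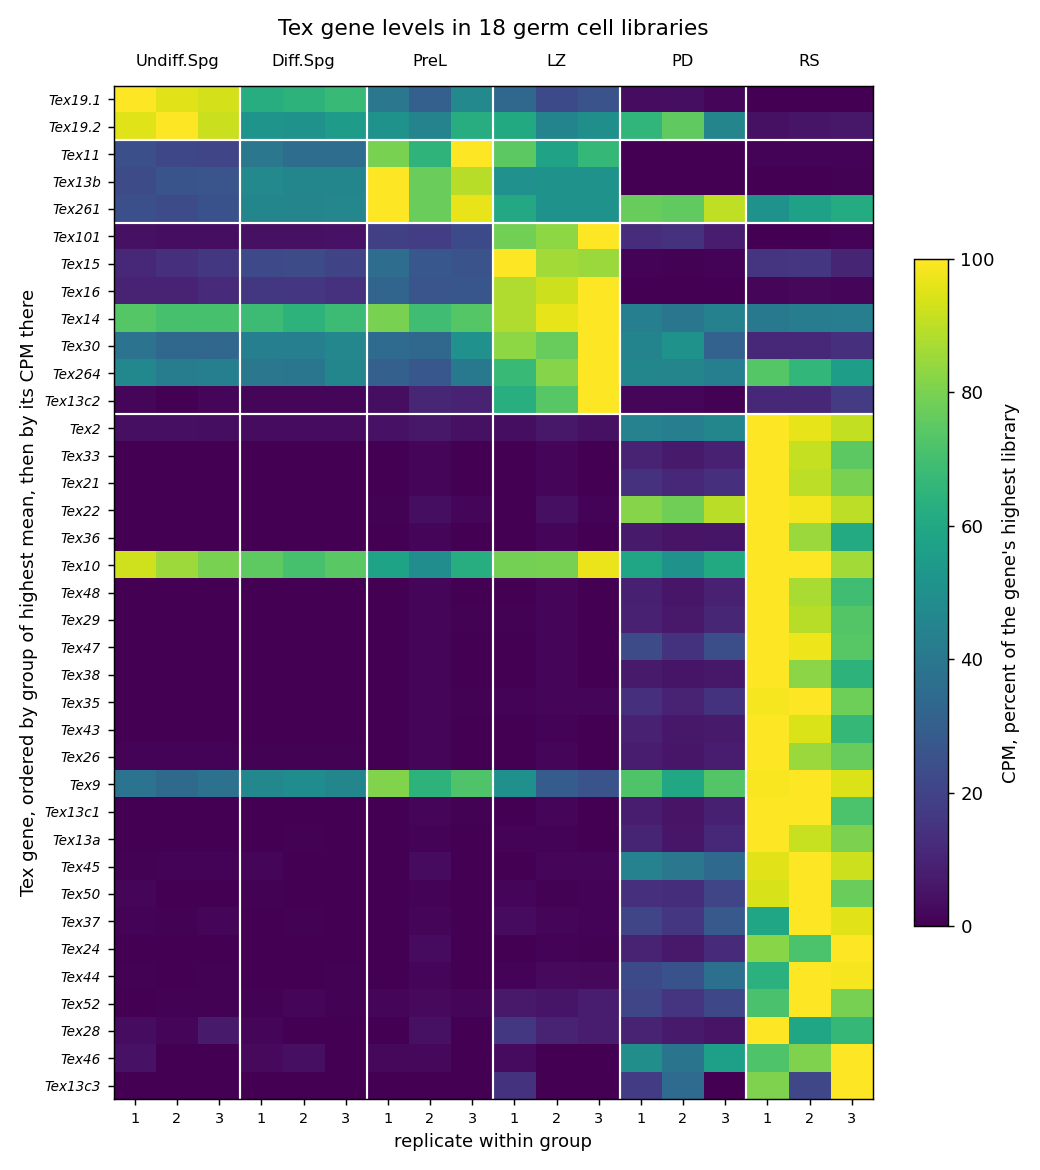
Level of each Tex gene in each of the 18 libraries, as CPM in percent of that gene's highest library (color scale 0 to 100). Columns are replicates 1 to 3 of each group and rows are the 37 genes by group of highest mean; 25 rows are brightest in the RS columns, and most of those are dark before PD.

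The summed level of the members was high in LZ and again in RS. Per library it was 1713 to 1756 CPM in Undiff.Spg, 1912 to 1933 in Diff.Spg, 2542 to 2931 in PreL, 5513 to 6020.3 in LZ, 2556 to 2709 in PD and 5728 to 6938 in RS. The libraries of LZ and RS lay above all PD libraries. Most of the LZ sum came from Tex101 and Tex15, at means of 1927 and 1702 CPM there. The number of members at 10 CPM or more was 14 in each of the first 3 groups, 15 in LZ, 20 in PD and 28 in RS. Per kilobase of exon, the highest group mean of any member was 1163 CPM for Tex101 in LZ; the members highest in RS on that scale were Tex33 at 609, Tex36 at 369.9, Tex48 at 334, Tex2 at 331 and Tex22 at 327 CPM per kilobase.

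Tex19.1 and Tex19.2 were the 2 members whose own highest mean was in Undiff.Spg. TEX19.1 restrains retrotransposons in the mouse germline and binds the ubiquitin ligase UBR2. For Tex19.1 (ENSMUSG00000039329, chr11:121146143-121148319, + strand, GRCm38) the CPM were 292, 279 and 273 in Undiff.Spg, 182, 189 and 198 in Diff.Spg, 116, 89.1 and 137 in PreL, 97.3, 66.1 and 74.4 in LZ, 9.42, 10.5 and 4.69 in PD, and 0.208, 0.220 and 0.604 in RS. The libraries of Undiff.Spg were all above those of Diff.Spg, and the mean was lower in each later group than in the one before. Undiff.Spg was 1.49-fold above Diff.Spg, a log2 difference of 0.57 ± 0.23 (SE) with an adjusted p of 0.0525 by edgeR, so this peak was not called. Without PreL replicate 2 and LZ replicate 2 the adjusted p was 0.00714 at the same size. The fall from LZ to PD was called (log2 -3.27 ± 0.26, adjusted p = 3.56e-09 by edgeR), and so was that from PD to RS (-4.47 ± 0.39, adjusted p = 4.92e-08). From Undiff.Spg to RS the mean fell from 281 ± 9.56 to 0.344 ± 0.225 CPM (SD, n = 3).

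Its paralog Tex19.2 (ENSMUSG00000039337, chr11:121116215-121118677, - strand, GRCm38) had 62.8, 66.1 and 60.8 in Undiff.Spg, 34.3, 33.9 and 36.4 in Diff.Spg, 33.7, 29.6 and 41.2 in PreL, 40.2, 29.8 and 33.0 in LZ, 43.4, 50 and 30.1 in PD, and 2.92, 3.75 and 4.14 in RS CPM. Its libraries from Diff.Spg to PD lay between 29.6 and 50 CPM, and those of RS were the lowest. Undiff.Spg exceeded PD by a log2 difference of 0.62 ± 0.18 (adjusted p = 0.00354 by edgeR), under 2-fold, and the libraries did not overlap. With total library size as the scale the same difference was 1.21, and without PD replicate 2 it was 1.06 (adjusted p = 0.000119 by edgeR), both past 2-fold. Libraries were scaled anew in the fit without PD replicate 2, and the part of scaling in that move was not tested. PD to RS was called lower (log2 -3.50 ± 0.21, adjusted p = 8.05e-10 by edgeR). The transcripts of the paralogs are 75.7% identical over 1197 aligned bases, and how the authors' counting treated reads that match both is not given in the sources used here. Ubr2, listed as a partner of TEX19.1, kept 168 CPM in Diff.Spg and 245 in LZ and stood at 6.13 in PD, a called fall (log2 -5.32 ± 0.20, adjusted p = 4.32e-13 by edgeR).

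No member was called higher or lower from Undiff.Spg to Diff.Spg, where 9.51% of all tested genes were called higher and 14.8% lower. At an unadjusted p under 0.05, 5 members were higher (Tex11, Tex13b, Tex15, Tex16 and Tex261) and 4 lower (Tex19.1, Tex19.2, Tex28 and Tex37). DESeq2 called 0 higher and 1 lower. The median log2 difference of the tested members was 0.15, against 0.00 over all tested genes.

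From Diff.Spg to PreL, Tex11, Tex101, Tex13c2 and Tex22 were called higher (4 of 36, against 9.20% of all tested genes) and none was called lower (16.5% of all); 3 were lower at an unadjusted p under 0.05, and DESeq2 called 13 higher and 0 lower. The median log2 difference was 1.25 in the members and 0.02 in all tested genes. PreL replicate 2 was the highest PreL library for 21 of the 25 members that peaked in RS. The part of that library in the median of the members was not tested. Without PreL replicate 2 and LZ replicate 2 the count was 6 higher, with Tex13b and Tex261 added to the same 4 genes, and 1 lower, Tex26. Leaving out PreL replicate 1 gave 14 higher, leaving out PreL replicate 3 gave 9 without Tex11, and leaving out LZ replicate 2 gave 12. The 10 genes added without PreL replicate 1 were all members with their highest mean in RS.

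Tex11 (ENSMUSG00000009670, chrX:100838648-101059667, - strand, GRCm38) had 112, 98.3 and 95.5 in Undiff.Spg, 181, 164 and 163 in Diff.Spg, 365, 298 and 457 in PreL, 342, 264 and 305 in LZ, 0.823, 0.364 and 0.684 in PD, and 5.21, 4.41 and 4.06 in RS CPM. It climbed from spermatogonia to PreL, where it was 2.20-fold above Diff.Spg (log2 1.14 ± 0.17, adjusted p = 3.52e-05 by edgeR). PreL and LZ libraries overlapped and were not told apart (log2 0.30 ± 0.16, adjusted p = 0.154 by edgeR). All PD libraries were then under 1 CPM. LZ to PD fell by 8.91 ± 0.26 on the log2 scale (adjusted p = 3.49e-14 by edgeR), and RS was 7.31-fold above PD at 4.56 CPM on average.

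Tex13b (ENSMUSG00000042386, chrX:140808307-140813433, - strand, GRCm38), another X-linked member, had 59.4, 66.4 and 67.9 in Undiff.Spg, 121, 118 and 118 in Diff.Spg, 257, 198 and 229 in PreL, 130.2, 132 and 132 in LZ, 0.457, 0.182 and 0.293 in PD, and 0, 0.220 and 1.38 in RS CPM. The PreL libraries stood above all LZ libraries, by 1.73-fold (log2 0.79 ± 0.27, adjusted p = 0.024 by edgeR), which is under the 2-fold rule. The LZ libraries varied little, with an SD of 1.02 CPM. From LZ to PD it fell by 8.68 ± 0.46 on the log2 scale (adjusted p = 1.83e-11 by edgeR), and RS stayed at most 1.38 CPM.

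Tex261 (ENSMUSG00000014748, chr6:83768885-83775813, - strand, GRCm38) encodes a membrane protein of the early secretory pathway and behaved differently from these X-linked genes. Its CPM were 50.4, 47.4 and 51.3 in Undiff.Spg, 94.0, 93.0 and 94.8 in Diff.Spg, 205, 158 and 198 in PreL, 124, 105 and 105 in LZ, 157, 155 and 185 in PD, and 105, 117 and 126 in RS. The lowest libraries were those of Undiff.Spg, at 49.7 CPM on average, and PreL at 187 ± 25.4 overlapped with PD at 166 ± 16.4 (SD, n = 3). PreL and PD were not told apart (log2 0.17 ± 0.12, adjusted p = 0.189 by edgeR). Without PreL replicate 2 and LZ replicate 2 the difference was 0.29 (adjusted p = 0.0333), still under 2-fold.

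**Figure D2:**
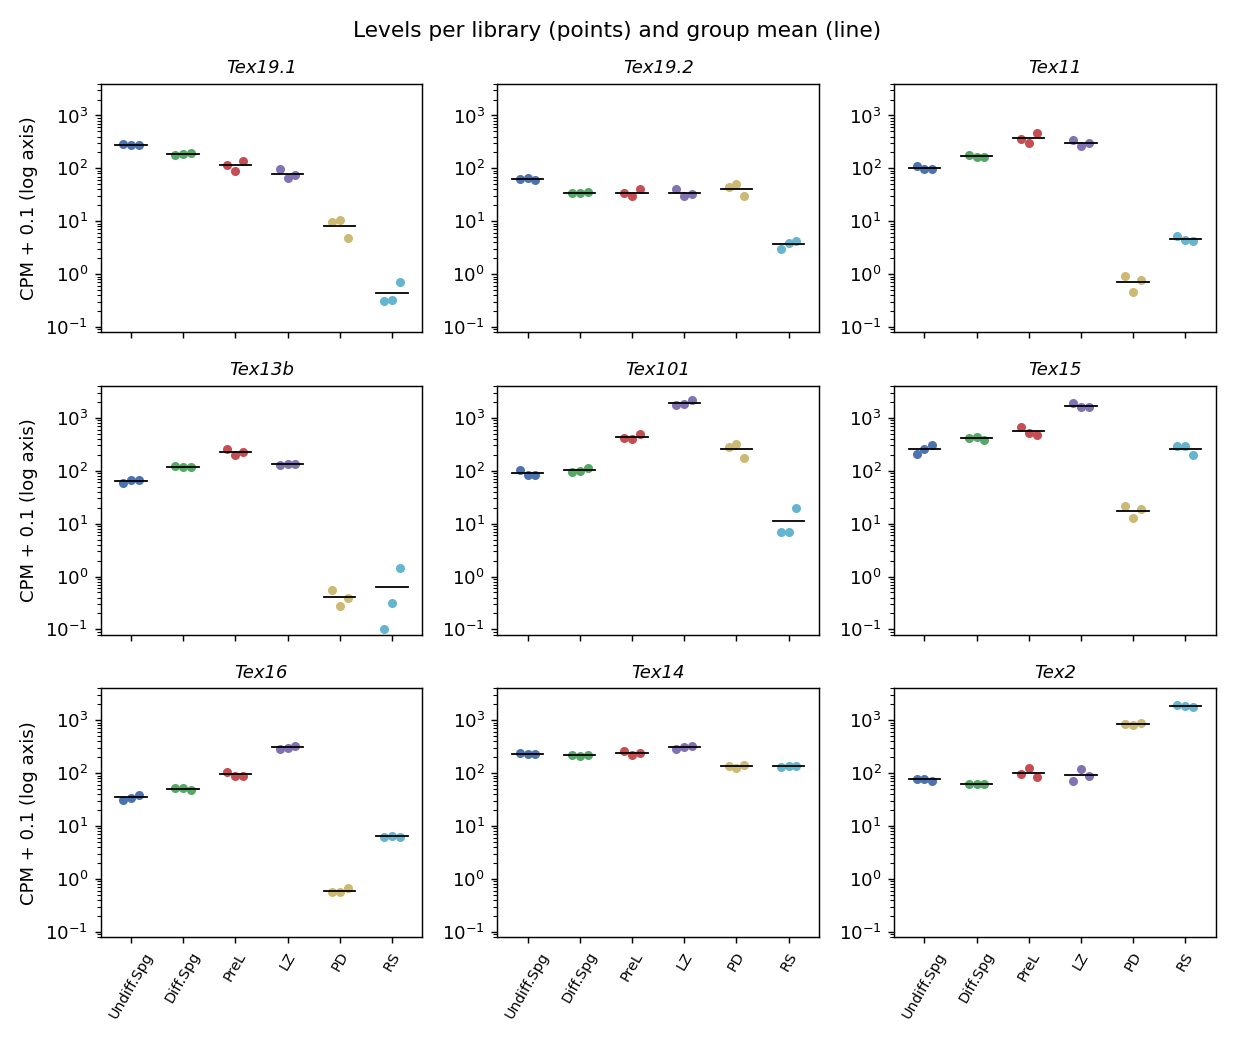
CPM plus 0.1 on a log axis for 9 Tex genes in 6 groups; points are the 3 libraries of a group and the line is their mean. Tex11, Tex13b and Tex16 drop below 1 CPM in PD, Tex15 drops to 12.7 to 21 CPM, and Tex2 climbs to 1751 to 1927 CPM in RS.

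From PreL to LZ, 8 of 36 members were called higher (14.6% of all tested genes) and 1 lower (13.1% of all). Those called higher were Tex101, Tex13c2, Tex15, Tex16, Tex264, Tex28, Tex30 and Tex52, and the one lower was Tex9. Without PreL replicate 2 and LZ replicate 2, 14 were higher, among them the same 8, and the 6 added were Tex13a, Tex35, Tex37, Tex38, Tex44 and Tex50. Without PreL replicate 2 alone, 22 were higher. Tex9 was no longer called without PreL replicate 1, LZ replicate 2 or LZ replicate 3. Tex28 rested on 3 reads in PreL and 17 in LZ, and it was no longer called without PreL replicate 1.

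Tex101 (ENSMUSG00000062773, chr7:24668007-24676675, - strand, GRCm38) had the highest level of any member per kilobase of exon. Its CPM were 103, 84.5 and 83.0 in Undiff.Spg, 95.2, 100 and 110.4 in Diff.Spg, 420.2, 403 and 496 in PreL, 1742, 1830.5 and 2208 in LZ, 278, 316 and 176 in PD, and 6.98, 6.83 and 19.5 in RS. LZ libraries stood far above all others, and RS libraries were the lowest. PreL was 4.32-fold above Diff.Spg (log2 2.11 ± 0.31, adjusted p = 3.32e-05 by edgeR) and LZ 4.38-fold above PreL (2.13 ± 0.30, adjusted p = 2.11e-05). It then fell by 2.91 ± 0.31 into PD and fell by 4.52 ± 0.34 into RS on the log2 scale (adjusted p = 1.99e-07 and 9.97e-09 by edgeR). Of 4 listed genes of the sperm surface that work with it, Ly6k was also enriched in LZ at 282 ± 42.1 CPM, Dpep3 had its highest mean there at 997 ± 156 without being enriched, while Adam3 and Ace peaked in RS at 2426 ± 123 and 546 ± 67.8 CPM (SD, n = 3).

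Tex15 (ENSMUSG00000009628, chr8:33516738-33585582, + strand, GRCm38) was the autosomal member with the deepest fall and return. Its CPM were 207, 257 and 305 in Undiff.Spg, 418, 432 and 384 in Diff.Spg, 670.3, 509.5 and 480.1 in PreL, 1883, 1624 and 1599 in LZ, 21, 12.7 and 18.5 in PD, and 289, 297 and 197 in RS. The PD libraries were below all 15 others, and those of RS overlapped with Undiff.Spg. LZ exceeded PreL 3.08-fold (log2 1.62 ± 0.20, adjusted p = 4.79e-06 by edgeR). From LZ to PD the level fell by 6.61 ± 0.25 on the log2 scale (adjusted p = 4.02e-13 by edgeR), and from PD to RS it rose 15-fold (3.91 ± 0.22, adjusted p = 4.94e-10). Of the 6 genes listed with TEX15 for piRNA-directed DNA methylation, 5 were tested, and their course differed: 4 were called lower in Diff.Spg than in Undiff.Spg and 5 lower in PreL than in Diff.Spg. Piwil4, which guides methylation of transposons in fetal germ cells, had 52.0 CPM in Undiff.Spg and 0.554 in PreL.

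Tex16 (ENSMUSG00000034555, chrX:112011007-112127326, + strand, GRCm38) is X-linked. Its CPM were 31.2, 33.2 and 39.2 in Undiff.Spg, 52.8, 52.2 and 47.3 in Diff.Spg, 107, 87.2 and 88.5 in PreL, 290.1, 304 and 329 in LZ, 0.457, 0.455 and 0.586 in PD, and 6.04, 6.50 and 6.21 in RS. The mean was higher in each group up to LZ than in the one before, and no PD library reached 1 CPM. LZ was 3.27-fold above PreL (log2 1.71 ± 0.12, adjusted p = 1.95e-08 by edgeR), PD fell by 9.25 ± 0.18 on the log2 scale (adjusted p = 5.17e-15) and RS was 12.5-fold above PD (3.63 ± 0.19, adjusted p = 2.7e-10).

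Tex14 (ENSMUSG00000010342, chr11:87405065-87555823, + strand, GRCm38) varied least among the members that peaked before PD. Its CPM were 238, 229 and 229 in Undiff.Spg, 222, 209 and 222 in Diff.Spg, 258, 224 and 238 in PreL, 285, 311 and 323 in LZ, 139, 127 and 142 in PD, and 130.2, 137 and 138 in RS. LZ libraries were above all PreL libraries, but by 1.28-fold (log2 0.35 ± 0.09, adjusted p = 0.00492 by edgeR). PD was called lower than LZ (log2 -1.17 ± 0.10, adjusted p = 5.22e-09 by edgeR), and RS, at 135 CPM, lay within the range of PD. Among the 6 genes listed with TEX14, 3 were called lower in PD than in LZ (35.0% of all tested genes) and 1 higher (36.8% of all). The higher one was Rbm44, at 79.7 CPM in LZ and 273 in PD (log2 1.78 ± 0.12, adjusted p = 3.24e-10 by edgeR). One of the lower ones was Kif23, a motor protein of the midbody from which the bridges form, at 410.5 CPM in LZ and 61.7 in PD (log2 -2.73 ± 0.15, adjusted p = 3.16e-11 by edgeR).

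Tex30 (ENSMUSG00000026049, chr1:44086613-44102441, - strand, GRCm38) had 94.6, 83.7 and 81.8 in Undiff.Spg, 107, 107 and 115 in Diff.Spg, 86.5, 82.7 and 125 in PreL, 206, 189.9 and 248 in LZ, 112, 126 and 78.2 in PD, and 28.5, 29.0 and 34.2 in RS CPM. LZ was highest without overlap and RS lowest. LZ exceeded PreL 2.19-fold (log2 1.13 ± 0.18, adjusted p = 5.87e-05 by edgeR) and Diff.Spg, the next group, by 0.97 ± 0.18 (adjusted p = 0.000163), just under 2-fold; without LZ replicate 2 that difference was 1.04. Gm29247 shares 17.5% of its exon bases on the same strand, so its counts are uncertain.

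Tex264 (ENSMUSG00000040813, chr9:106658746-106685927, - strand, GRCm38), a receptor that delivers endoplasmic reticulum to autophagosomes, had 67.0, 60.6 and 62.3 in Undiff.Spg, 57.3, 56.4 and 66.0 in Diff.Spg, 44.0, 38.9 and 58.0 in PreL, 97.4, 118 and 144 in LZ, 66.2, 65.3 and 62.4 in PD, and 106, 95.4 and 80.1 in RS CPM. LZ and RS were the high groups and their libraries overlapped (log2 0.35 ± 0.16, adjusted p = 0.05 by edgeR); PreL was lowest. LZ was 2.55-fold above PreL (log2 1.35 ± 0.16, adjusted p = 3.64e-06 by edgeR). Of 5 listed genes that work with it, 2 were called lower in LZ than in PreL, Map1lc3a and Map1lc3b (13.1% of all tested genes), and 0 higher. In PD against LZ, 2 of the 5 were called higher (36.8% of all tested genes), both for proteins that coat autophagosomes. These were Map1lc3a at 17.5 and 304 CPM in LZ and PD, and Gabarap at 163 and 563. The remaining LZ member, Tex13c2 on the X chromosome, stood at 45.8 ± 11 CPM in LZ against 7.69 ± 2.01 in RS (SD, n = 3) and was enriched in LZ (log2 2.56 ± 0.34 over RS, adjusted p = 1.82e-06 by edgeR).

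Of 8 genes listed with TEX11, which acts in crossover formation, 6 were tested, and Shoc1 and Spo16 were not found under these names. All 6 were called higher in LZ than in PreL (14.6% of all tested genes). Of the 6, 5 were called lower in PD than in LZ (35.0% of all). Hfm1, a helicase of crossover formation, had 24.7 CPM in PreL and 367 in LZ (log2 3.89 ± 0.24, adjusted p = 8.96e-09 by edgeR). Msh5, of the crossover clamp, had 30.9 and 299.8 CPM (3.28 ± 0.24, adjusted p = 3.21e-08). Both were enriched in LZ, whereas Tex11 was not called different between PreL and LZ. Over all 34 tested partner genes, 2 were called higher and 6 lower in Diff.Spg against Undiff.Spg (5.88% and 17.6%), and 7 higher and 5 lower in PreL against Diff.Spg (20.6% and 14.7%). Then 8 were called higher and 6 lower in LZ against PreL (23.5% and 17.6%), and 8 higher and 12 lower in PD against LZ (23.5% and 35.3%). In RS against PD 4 were called higher and 8 lower (11.8% and 23.5%). The shares over all tested genes stand with the members' counts at each step.

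The step from LZ to PD changed the most members. There 21 of 36 were called higher (36.8% of all tested genes) and 9 lower (35.0% of all), and the median log2 difference was 3.23 in the members against 0.00 in all tested genes. Those called lower were Tex101, Tex11, Tex13b, Tex13c2, Tex14, Tex15, Tex16, Tex19.1 and Tex30. Both counts were the same without PreL replicate 2 and LZ replicate 2.

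The 12 members that peaked before PD kept very different shares of their LZ level in PD, and 9 of them were called lower. Relative to the LZ mean, the PD mean was 0.162% for Tex16, 0.206% for Tex11, 0.237% for Tex13b and 1.61% for Tex13c2, all X-linked. Tex15, on chromosome 8, kept 1.02%. The autosomal Tex19.1 and Tex101 kept 10.3% and 13.3%, Tex14, Tex30 and Tex264 kept 44.4%, 49.1% and 54.1%, and Tex19.2 and Tex261 stood at 119.9% and 149%. Tex264, Tex19.2 and Tex261 were not called at this step. As a reference, the 210 X-linked genes with at least 20 CPM in LZ kept a median of 0.401% (quartiles 0.140% and 1.42%), and 171 of them kept under 2%. The 6623 autosomal genes with that level kept a median of 59.4%, and 405 of them (6.12%) kept under 2%. Tex15 thus lay in the range of the X-linked genes, which the autosomal members otherwise did not reach.

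**Figure D3:**
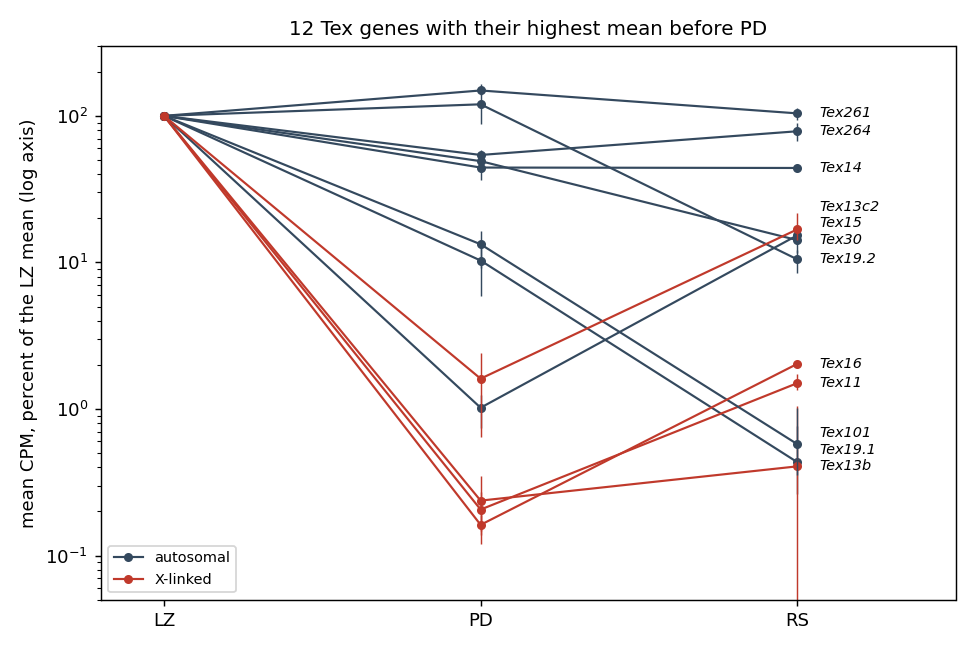
Mean CPM in PD and RS as percent of the LZ mean (log axis) for the 12 Tex genes that peak before PD; bars span the 3 libraries and red marks X-linked genes. The X-linked genes fall to between 0.162% and 1.61% in PD, Tex15 is the autosomal line among them at 1.02%, and the other autosomal genes keep 10.3% or more.

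From PD to RS 24 of 36 members were called higher (24.5% of all tested genes) and 4 lower (19.7% of all), with a median log2 difference of 2.32 against 0.00 over all tested genes. The 4 lower were Tex101, Tex19.1, Tex19.2 and Tex30. Of the 24 higher, Tex11, Tex13c2, Tex15 and Tex16 were genes with an earlier peak that returned in part; Tex15 and Tex13c2 reached 15.3% and 16.8% of their LZ level in RS, Tex16 2.03% and Tex11 1.5%. The counts were the same without PreL replicate 2 and LZ replicate 2.

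Among the RS members, Tex2 (ENSMUSG00000040548, chr11:106502147-106613423, - strand, GRCm38) had the most reads. It encodes a membrane protein of the endoplasmic reticulum with a lipid-binding domain. Its CPM were 78.5, 76.2 and 72.1 in Undiff.Spg, 63.2, 62.0 and 62.4 in Diff.Spg, 97.8, 123 and 86.0 in PreL, 70.4, 122 and 86.2 in LZ, 856, 825 and 885 in PD, and 1927, 1854 and 1751 in RS. The libraries of the first 4 groups lay between 62.0 and 123, those of PD between 825 and 885 and those of RS between 1751 and 1927, without overlap. RS exceeded PD 2.16-fold (log2 1.11 ± 0.16, adjusted p = 1.4e-05 by edgeR) and PD exceeded LZ 9.21-fold (3.20 ± 0.17, adjusted p = 2.57e-11). With total library size as the scale the RS to PD difference was 0.89, under 2-fold.

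Tex33 (ENSMUSG00000062154, chr15:78378400-78395912, - strand, GRCm38) had 0.457, 0.806 and 0.209 in Undiff.Spg, 0.281, 1.73 and 0.872 in Diff.Spg, 0.171, 16.5 and 1.21 in PreL, 1.23, 16.2 and 1.91 in LZ, 86.4, 62.5 and 77.9 in PD, and 853, 777 and 638 in RS CPM. Outside PD and RS, its 2 highest libraries were PreL replicate 2 and LZ replicate 2. RS was 10-fold above PD (log2 3.32 ± 0.94, adjusted p = 0.00557 by edgeR; 2.15e-10 without those 2 libraries).

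Tex21 (ENSMUSG00000021056, chr12:76198686-76246746, - strand, GRCm38) had 1.17, 1.21 and 0.417 in Undiff.Spg, 0.421, 1.94 and 0.498 in Diff.Spg, 0.455, 11.9 and 0.857 in PreL, 0.690, 9.16 and 1.32 in LZ, 99.6, 77.0 and 96.5 in PD, and 703, 633 and 562 in RS CPM. The same 2 libraries were the high ones before PD, and RS was 6.95-fold above PD (log2 2.80 ± 0.81, adjusted p = 0.00658 by edgeR). Tex36 (ENSMUSG00000030976, chr7:133587024-133602158, - strand, GRCm38) had 0.196, 0.269 and 0.209 in Undiff.Spg, 0.561, 0.486 and 0.187 in Diff.Spg, 0.0569, 5.88 and 0.786 in PreL, 0.843, 6.13 and 0.587 in LZ, 31.7, 22.0 and 23.7 in PD, and 432, 367 and 264 in RS CPM, with RS 13.7-fold above PD (log2 3.78 ± 0.71, adjusted p = 0.000198 by edgeR). Both genes were enriched in RS.

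Tex38 (ENSMUSG00000044556, chr4:115779834-115781018, - strand, GRCm38) had 0.391, 0.0671 and 0.0696 in Undiff.Spg, 0.351, 0.432 and 0.187 in Diff.Spg, 0.114, 2.97 and 0 in PreL, 0.537, 3.38 and 0.367 in LZ, 13.8, 11.2 and 12.1 in PD, and 193, 159.5 and 125 in RS CPM, and no library before PD exceeded 3.38. RS was 12.9-fold above PD (log2 3.68 ± 0.61, adjusted p = 5.64e-05 by edgeR). Its partner Zdhhc19 also peaked in RS and was called higher at the same steps, at 17.8 CPM in PD and 193 in RS (log2 3.44 ± 0.65, adjusted p = 0.000218 by edgeR).

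Tex22 (ENSMUSG00000012211, chr12:113074502-113088917, + strand, GRCm38) had a PD mean at 86.6% of its RS mean. Its CPM were 0.326, 1.14 and 0.487 in Undiff.Spg, 0.351, 0.864 and 0.872 in Diff.Spg, 1.76, 15.9 and 5.21 in PreL, 1.53, 17.4 and 4.18 in LZ, 353, 338 and 388 in PD, and 432, 425 and 389 in RS. RS libraries were above PD libraries by a mean of 1.16-fold, which was not told apart (log2 0.21 ± 0.61, adjusted p = 0.807 by edgeR; -0.01 with total library size as the scale). The rise from LZ to PD was called, 46.7-fold on means of 7.71 and 359.6 CPM (log2 5.53 ± 0.75, adjusted p = 3.24e-06 by edgeR).

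Tex10 (ENSMUSG00000028345, chr4:48430858-48473459, - strand, GRCm38), a subunit of the PELP1 complex that works in ribosome maturation, was present throughout. Its CPM were 325, 299 and 281 in Undiff.Spg, 264, 249 and 261 in Diff.Spg, 203, 172 and 219 in PreL, 278, 279 and 341 in LZ, 206, 179 and 213 in PD, and 349.9, 351 and 302 in RS. RS at 334 ± 28.2, Undiff.Spg at 301 ± 22.1 and LZ at 299 ± 36.1 CPM (SD, n = 3) were the high groups, and their libraries overlapped. RS was not called different from Undiff.Spg (log2 0.15 ± 0.12, adjusted p = 0.256 by edgeR) or from LZ (0.16 ± 0.12, adjusted p = 0.23). The sign against Undiff.Spg turned with total library size as the scale (-0.66) and in 7 of the fits that leave out 1 library, so which of these 3 groups is the peak of Tex10 was not settled. A stretch of 5.2% of its exon bases overlaps Invs on the opposite strand, and whether strand was counted is not given in the sources used here. Among the 6 genes listed with it, Nol9 was called lower at each of the steps to LZ, PD and RS. Wdr18 was also called lower at the step to LZ, Las1l at that to PD and Mdn1 at that to RS. The X-linked Las1l fell from 67.5 to 1.5 CPM between LZ and PD (log2 -5.49 ± 0.17, adjusted p = 6.52e-14 by edgeR), while Tex10 kept 199 CPM in PD.

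The other 18 RS members ranged from 0.348 CPM (Tex13c3) to 230.2 ± 41.2 CPM (Tex48; SD, n = 3) in RS. Of the 17 tested, 15 were enriched in RS, and the other 2 were Tex9 and Tex46. Tex9 was 1.35-fold above PreL (log2 0.43 ± 0.19, adjusted p = 0.0392 by edgeR) and shares 32.3% of its exon bases with Mns1 on the opposite strand, so its counts are uncertain. Tex46 was at 2.19 ± 0.365 CPM in RS and 1.25 ± 0.233 in PD (SD, n = 3; adjusted p = 0.0912 by edgeR). Tex52 shares exon bases with Foxm1 and Gm44596 and is uncertain too. X-linked members were among the enriched ones: Tex13c1 at 53.1 ± 9.56 CPM, Tex13a at 42.6 ± 4.67 and Tex28 at 2.82 ± 0.821 (SD, n = 3). The paralogs of the Tex13 group thus split, with Tex13b highest in PreL, Tex13c2 in LZ, and Tex13a and Tex13c1 in RS.

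How much of an RS member was already there in PD differed from gene to gene. The PD mean was 86.6% of the RS mean for Tex22, 70.0% for Tex9, 59.6% for Tex10, 57.1% for Tex46, 46.4% for Tex2, 41.0% for Tex45 and 32.2% for Tex44. At the other end it was 7.29% for Tex36, 7.77% for Tex38, 8.06% for Tex13c1, 8.34% for Tex26 and 8.71% for Tex43. In the PD libraries, 118 other X-linked genes that are high in RS stood at medians of 9.57%, 6.53% and 8.42% of their RS level, with an upper quartile of at most 11.3%. Of the 25 RS members, 11 had a PD mean at or under that upper quartile and 14 above it. The X-linked Tex13a, Tex13c1 and Tex28 were among the 11. As 21 of the 25 are autosomal and no share for other autosomal genes is given here, these counts have no matched reference. PD replicate 2, which had the lowest X-linked median, was also the lowest of the 3 for 21 of the 25. The part that RS transcripts in the PD libraries have in the low PD values was not tested.

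**Figure D4:**
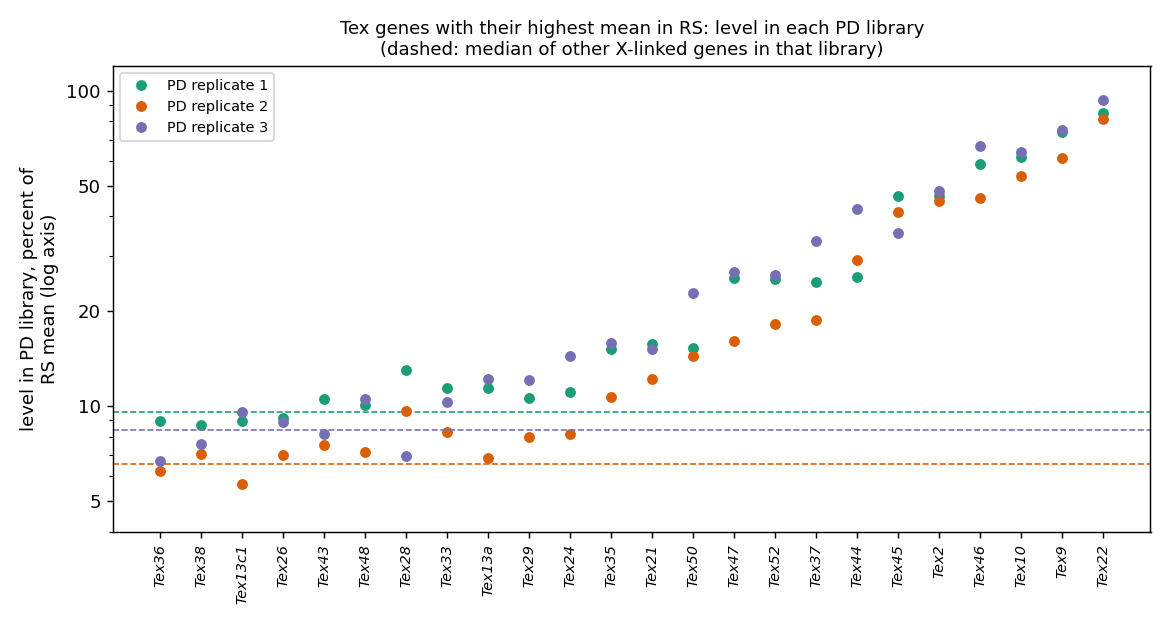
Level of the 24 tested RS members in each PD library as percent of their RS mean (log axis), ordered by the PD mean; dashed lines are the medians of 118 other X-linked genes in the same libraries. The genes at the left, from Tex36 to Tex24, lie near the lines at 7.29% to 11.2% on average, and Tex22 at the right reaches 86.6%.

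The same comparison was made in earlier libraries. PreL replicate 2 was above the other PreL libraries for 21 of the 25 RS members and LZ replicate 2 above the other LZ libraries for 17. For Tex33 that library held 16.5 CPM in PreL against 0.171 and 1.21, and 16.2 CPM in LZ against 1.23 and 1.91. The part of late transcripts in these 2 libraries in the counts at the PreL and LZ steps was not tested.

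Promoters of the RS members were mostly poor in CpG. Over the 300-base windows, averaged per gene where a gene had more than 1 start, the observed count of CpG over that expected from base composition was 0.6 or more in 4 of 21 RS members (Tex10, Tex2, Tex26 and Tex9) and in 6 of 9 members that peaked earlier. The medians were 0.17 and 0.70, and 0.39 over 27025 genes, of which 35.5% reached 0.6. Among members that peaked earlier, Tex19.2 at 0.13 and Tex16 at 0.00 were as poor as most RS members. The Tex16 window, chrX:112093270-112093569, lies inside its GENCODE gene model, which starts upstream at chrX:112011007. It may therefore not be the promoter of the transcripts counted, and the same holds for the windows of Tex101 and Tex2. The CpG values are descriptions, and the comparison was not tested.

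**Figure D5:**
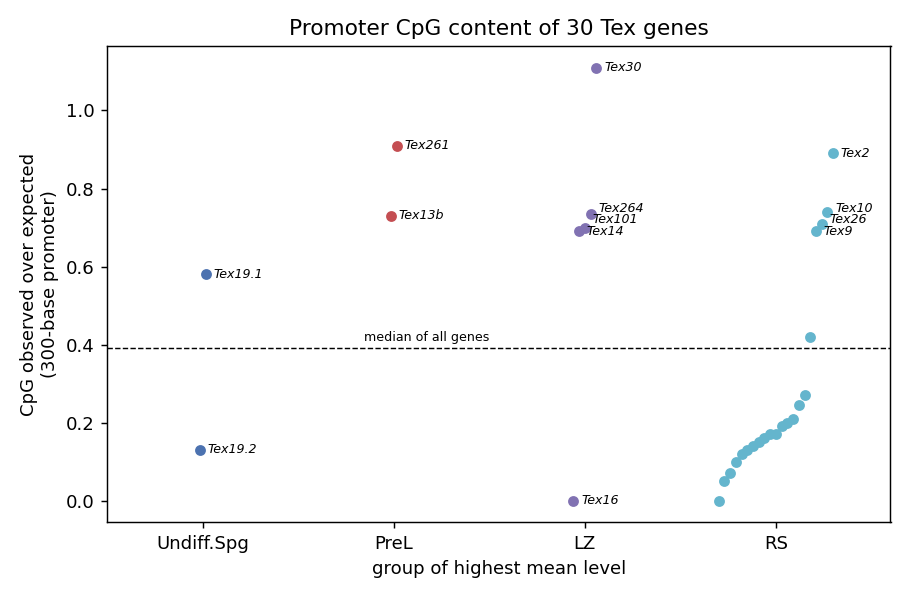
Observed over expected CpG in the 300-base promoter for 30 Tex genes by group of highest mean level; each point is 1 gene and the dashed line is the median of all genes, 0.39. Of the 21 RS points 4 lie at or above 0.6, and 6 of the 9 others do.

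Motif letters were searched on both strands of the same windows. The cAMP response element TGACGTCA was in 0 of 30 members and 2.03% of all genes, and its first 5 letters, TGACG, in 5 of 30 and 23% of all. The E2F letters TCCCGC were in 5 of 9 members that peaked before RS (Tex14, Tex19.1, Tex261, Tex264 and Tex30). They were in 3 of 21 RS members (Tex2, Tex26 and Tex9) and in 22% of all genes. These letters hold a CG pair, and those 3 RS members had observed over expected CpG of 0.69 to 0.89. The part of CpG content in this contrast was not tested. RFX letters, GTTGCC, were in 5 of 21 RS members against 14.1% of all genes, one of them at position -36 from the start of Tex33, and MYB letters, CAACTG, in 6 of 21 against 15.4%. The STRA8 letters CNCCTCAG were in 3 of 30 and 9.12% of all genes, and the E-box CACGTG in 2 of 30 and 8.09%. TATAAA was in 3 of 30 and 15.7% of all genes, one of them Tex19.1. A match is not a binding site, and the absence of these letters says nothing of the factor.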

How the data were processed

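RNA-seq was done on 18 libraries of 6 sorted germ cell groups. The authors deposited unscaled read counts per gene, whole numbers with totals that differ between libraries. The tools named, per the submitters' processing notes, were STAR 2.4.2a, HTSeq, cutadapt and DESeq2, with the GRCm38 build. Which did what, the gene annotation and the strand setting were not given in the sources used here. Per the labels' protocols, cells were sorted on an Aria 3 and single reads were made on an Illumina HiSeq. Reads carry no molecular identifiers, so floors cover counting error only. A gene at 3 counts or fewer over a group was given no fold against it.

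Names, exons and coordinates came from GENCODE M21, which held 46091 of the 46603 gene IDs (98.9%). Counts were filtered by filterByExpr with the groups, which left 18547 genes, and fitted in 1 model of the 6 groups by edgeR 4.0.16 (R 4.3.3; TMM, glmQLFit and glmQLFTest, 2-sided; common biological coefficient of variation 0.202). All 15 pairs of groups were tested, with Benjamini-Hochberg adjustment over all tested genes within each pair. The pair that sets a peak against the next group was picked from the data. The standard error is the absolute log2 difference over the square root of F. Replicates differed by 2.5 to 52.8 times the counting variance, so none were copies. Promoters came from RefSeq (GRCm38.p6).

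The members and the lists of partner, stage and other cell type genes were chosen with earlier results of these data known. Named members are those with a known role (Tex2, Tex10, Tex11, Tex14, Tex15, Tex19.1, Tex19.2, Tex38, Tex101, Tex261 and Tex264) and, in each group, the 5 that peak there with the highest mean CPM. A peak needed 10 reads over all libraries.

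Deviations from group means of libraries with the same replicate number correlated at 0.228, 0.445 and 0.121 between Diff.Spg and PreL and at 0.455, 0.683 and 0.254 between PreL and LZ, all over 0.1. Libraries with different numbers correlated at -0.387 to 0.193 between Diff.Spg and PreL and at -0.587 to 0.286 between PreL and LZ. Some of these values were thus above those of the same number. The highest value, 0.683, was for PreL replicate 2 and LZ replicate 2, the 2 libraries that stood apart. The replicate numbers come from the sample titles. They were taken to pair libraries only in the alternative fit with replicate number as a block, and the main fit did not use them. Other neighbouring groups had at least 1 correlation under 0.1.

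Alternatives were scaling by relative log expression or total library size, no low-count filter, at least 1 CPM in 3 libraries, DESeq2 1.42.0, replicate number as a block, no fold condition, each pair of groups fitted alone, each library left out in turn, and PreL replicate 2 and LZ replicate 2 left out together.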

Additional observations from a re-analysis of the deposited data

How the results depend on the processing

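Counts at the steps into PD and RS and the enriched counts in LZ and RS stayed within 1.5 times of those reported under every alternative run; the counts at earlier steps did not. With no fold condition, 5 members were called higher and 1 lower in Diff.Spg, 9 higher and 2 lower in PreL, 3 lower in LZ, and 1 each was enriched in Undiff.Spg and PreL. With no low-count filter, 10 were higher in PreL. DESeq2 called 13 higher in PreL and 1 lower in Diff.Spg, and fitting each pair of groups alone also gave 1 lower in Diff.Spg. Without PreL replicate 2 and LZ replicate 2, 14 were higher in LZ, 1 lower in Diff.Spg and 1 lower in PreL. Leaving out each library in turn gave 4 to 14 higher in PreL, 7 to 22 higher and 0 to 1 lower in LZ, and 0 to 1 lower in Diff.Spg. With total library size only, 1 member peaked in PD. The cause was not tested.

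With replicate number as a block, 4 members were called higher in PreL and 8 in LZ, and at each of the 5 steps the members called were the same genes as without the pairing.

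Of the named peaks, Tex22 (RS against PD) turned to -0.01 and Tex10 (RS against Undiff.Spg) to -0.66 with total library size only. Leaving out each library in turn gave -0.22 to 0.19 for Tex10: -0.22, -0.21 and -0.12 without RS replicates 1, 2 and 3, and -0.19 without LZ replicate 3 or any PD replicate. Total library size moved the median log2 difference of all genes by -0.20 in LZ, -0.35 in PD and -0.14 in RS. Depth limits the members under 1 CPM, of which there were 23 in each spermatogonial group and 3 in RS.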

Other observations

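The course of Tex15, a deep low in PD followed by a return in RS, was set beside that of other autosomal genes, in a count chosen after its values were seen. Of 6623 other autosomal genes with at least 20 CPM in LZ, 405 (6.12%) had a PD mean under 2% of the LZ mean, and 13 of these had an RS mean more than 10 times the PD mean, as Tex15 did. Of the 2577 with at least 100 CPM in LZ, 148 (5.74%) were under 2%, and 2 of these were more than 10 times higher in RS: Dek, which encodes a chromatin protein, and Vcl, which encodes the adhesion protein vinculin. Among 210 X-linked genes with at least 20 CPM in LZ, 171 were under 2% in PD, and 68 of these were more than 10 times higher in RS.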
